A study of Mus musculus with 123 samples.

Results

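The inner cell mass (ICM) of control embryos of the Oct4 line was followed from the early to the late blastocyst, using 16 embryos of the study, which holds 107 others. The 16 embryos were chosen by their labels, 8 Oct4 Ctrl early ICMs and 8 Oct4 Ctrl late ICMs, with embryos whose mothers had an intact gene (MWT) set apart. Each library held the transcripts of 1 ICM, counted as unique molecular identifiers (UMIs), which let copies made by PCR be counted once. Ctrl embryos came from Pou5f1 flox/flox females carrying Zp3-Cre, which deletes the gene in the growing oocyte, mated with Pou5f1 +/mKO2 males. They therefore lacked maternal Oct4 and held an intact Pou5f1 allele from the father, and they were told from the knockout embryos (KO, no maternal and no zygotic Oct4) by the absence of mKO2 fluorescence. All the ICMs came from embryos cultured in KSOM with 1 µM of the MEK inhibitor PD0325901 from E2.5, and the trophectoderm was removed by immunosurgery. Early ICMs were taken at E3.75 and late ICMs at E4.5, so developmental time and time in culture with the inhibitor cannot be told apart. The late ICMs carried a set digit in their labels, 5 in set 1 and 3 in set 2, and the early ICMs carried none.

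In the early blastocyst the ICM holds precursors of the epiblast, the source of the fetus, and of the primitive endoderm, a layer that goes on to line the yolk sac. FGF4 from epiblast precursors acts through MEK and ERK to drive primitive endoderm, and a MEK inhibitor turns the balance towards epiblast. The epiblast of the late blastocyst expresses the naive pluripotency factors, and begins to express genes of the formative state that precedes implantation. The transition from early to late ICM therefore addresses how the epiblast matures when primitive endoderm is held back.

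Total depth was lower in the late ICMs. The early ICMs held 852 ± 46.2 kilo-UMIs (mean ± SD, n = 8, range 785 to 938) and the late ICMs 668 ± 93.7 (n = 8, range 526 to 747), a difference of -184 kilo-UMIs (exact permutation test, two-sided, p = 0.000155). Fewer cells and less RNA per cell cannot be told apart in such totals, and what follows are shares of each library in CPM (UMIs of a gene per mega-UMI of the embryo) after TMM scaling. Between 12,509 and 13,632 genes were detected per embryo. On the first principal component of the 500 most variable genes, which held 44.2% of their variance, 7 early ICMs lay between -37.1 and -15.7 and the late ICMs between 10.2 and 33.3. The early ICM labelled 9 stood apart from the other early ICMs, at 2.05, on the side of the late ones. The late ICM labelled 1-9 stood apart in another respect, with 4627 CPM over the primitive endoderm list against at most 2627 CPM in the other late ICMs. Several fold changes that moved without either embryo are given with and without it. The embryos are separate libraries whose litters are not given, so the p-values measure the spread between these embryos. Between label sets 2 and 1 of the late ICMs, 55 genes were called (0.391% of those tested, 26 higher and 29 lower in set 2, or 46 higher and 18 lower of 64 when scaled by library totals).

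Markers were compared with the labels first. The targeted gene, Pou5f1 (ENSMUSG00000024406, mm10 chromosome 17, 35506018 to 35510772), was present in every embryo at 57.5 to 88.9 CPM in the early ICMs (median 78.8) and 24.1 to 63.1 CPM in the late ICMs (median 42.6). It was at a mean of 1.02 CPM in early and 0.158 CPM in late Oct4 KO ICMs. Its log2 fold change of -0.81 ± 0.20 (SE, adjusted p 0.000997) in Ctrl is below the fold threshold used here (past it with late ICMs of set 2 alone, at -1.18 with an adjusted p of 0.00198, and with GC content in the fit, at -1.08 with an adjusted p of 1.18e-05), and the late ICMs lay mostly under the early ones. Sox2 (ENSMUSG00000074637, mm10 chromosome 3, 34650405 to 34652461), its partner in the epiblast, was at 79.7 to 176 CPM in the early ICMs (median 125) and 133 to 473 CPM in the late ICMs (median 308). It rose by 1.30 ± 0.27 (SE, adjusted p 5.01e-05) on the log2 scale, with some overlap of the groups. Nanog, which excludes primitive endoderm fate, was at 386 to 935 CPM in the early ICMs (median 752) and 701 to 1430.0 CPM in the late ICMs (median 946), a log2 difference of 0.48 ± 0.23 (SE, adjusted p 0.102). Over 9 epiblast markers (Sox2, Nanog, Pou5f1, Fgf4, Tdgf1, Gdf3, Klf2, Prdm14 and Utf1) the summed level was 1348 to 2237 CPM in early and 2397 to 3696 CPM in late ICMs, and 5 of the 9 were called higher and 0 lower, against 9.52% and 6.04% of all genes by the thresholds given next.

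Of 14,053 genes tested, 2187 were called changed from early to late ICM, at an adjusted p under 0.05 (edgeR quasi-likelihood test, Benjamini-Hochberg) and a log2 fold change of at least 1 in size. That is 15.6% of the genes, with 1338 higher in the late ICM (9.52%) and 849 lower (6.04%). In 428 genes (3.05%) the lowest late ICM lay above the highest early ICM, and in 464 (3.3%) the highest late ICM lay below the lowest early one. The median log2 fold change over all genes was 0.03.

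The 12 genes that rose most were of varied function. Car2, a carbonic anhydrase that interconverts carbon dioxide and bicarbonate, was at 0 to 2.08 CPM in the early ICMs (median 0.533) and 20.9 to 163 CPM in the late ICMs (median 48.2). This was the largest rise that met the naming rule, 6.38 ± 0.73 (SE, adjusted p 1.47e-11) on the log2 scale, from 5 UMIs in all early ICMs together to 391 in the late ones. Mme, the membrane peptidase neprilysin, rose by 4.96 ± 0.64 (SE, adjusted p 6.27e-10), from 5 to 143 UMIs. Vim, the intermediate filament protein vimentin, went from 5 to 140 UMIs. Its late values ran from 4.23 to 98.8 CPM, the highest in the embryo 1-9, and its log2 fold change of 4.94 ± 0.93 was 4.11 with an adjusted p of 0.000494 without that embryo.

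Of the transcription regulators among these genes, Tcf7l1 (ENSMUSG00000055799, mm10 chromosome 6, 72626378 to 72789254), the TCF factor that represses WNT targets and limits naive self-renewal, was at 0 to 26 CPM in the early ICMs (median 4.01) and 32.1 to 268 CPM in the late ICMs (median 181). All late ICMs lay above all early ICMs, and the gene rose by 4.45 ± 0.45 (SE, adjusted p 7.7e-14), or 5.05 with an adjusted p of 1.74e-14 without the early ICM labelled 9. Zscan10, a zinc finger factor of pluripotent cells, went from a median of 2.15 to 58.2 CPM (4.29 ± 0.52). Foxd3, a forkhead factor needed to maintain the epiblast, was at 0 to 61.3 CPM in the early ICMs (median 6.60) and 107 to 360.3 CPM in the late ICMs (median 213). Its early value was at most 17.1 CPM in 7 embryos and 61.3 CPM in the early ICM labelled 9, still below the lowest late ICM, and it rose by 3.94 ± 0.54 (SE, adjusted p 6.28e-09), or 4.96 with an adjusted p of 1.09e-10 without that embryo. Cited4, a coactivator of the CBP/p300 family of partners, rose by 4.63 ± 0.67.

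Further genes of the leading 12 handled solutes or substrates. Slc7a3, a transporter of arginine and lysine, rose from a median of 1.63 to 35.6 CPM (3.90 ± 0.55). Pycr1, an enzyme of proline synthesis, was at 0 to 12.8 CPM in the early ICMs (median 4.37) and 51.6 to 104 CPM in the late ICMs (median 79.5), with a log2 fold change of 3.82 ± 0.44 (SE, adjusted p 1.19e-11). The other three were Adap1, an Arf GTPase-activating protein (4.06 ± 0.43), Fbln5, the matrix protein fibulin 5 (3.95 ± 0.56), and Ppp1r1a, an inhibitor of protein phosphatase 1 (3.85 ± 0.54). None of the 12 overlapped between the stages, as the rule required.

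**Figure D1:**
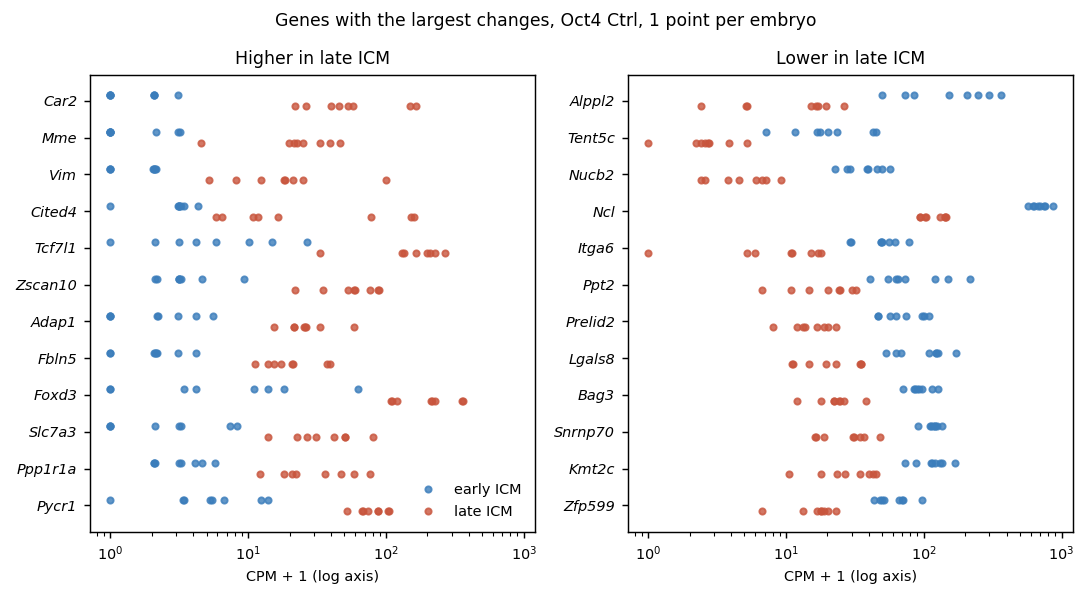
Each point is 1 embryo, early ICMs in blue and late ICMs in red, on a log axis of CPM + 1, for the 12 genes with the highest and the 12 with the lowest log2 fold change that met the naming rule. The stages do not overlap for any of these genes, which the rule required, and Ncl has the smallest SE, 0.13.

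The genes that fell most were of varied function. Alppl2 (ENSMUSG00000026246, mm10 chromosome 1, 87086694 to 87089928), an alkaline phosphatase of early embryos, was at 49 to 363 CPM in the early ICMs (median 178) and 1.43 to 25.6 CPM in the late ICMs (median 14.9) and fell by 3.89 on the log2 scale (SE 0.56, adjusted p 2.06e-08). Ncl (ENSMUSG00000026234, mm10 chromosome 1, 86344719 to 86359400), the abundant nucleolar protein nucleolin, was at 568 to 859 CPM in the early ICMs (median 687) and 93.2 to 145 CPM in the late ICMs (median 116). Its log2 fold change of -2.54 ± 0.13 (SE, adjusted p 1.59e-31) was the one with the smallest SE among the 24 leading genes. Itga6, the laminin-binding integrin alpha 6, went from a median of 48.6 to 9.95 CPM (-2.40 ± 0.31). Log2 fold changes of others were -3.48 ± 0.51 for Tent5c, a poly(A) polymerase, -2.02 ± 0.20 for Snrnp70, a U1 spliceosome protein, and -2.005 ± 0.22 for Kmt2c, a histone methyltransferase of enhancers. Bag3, a partner of the chaperone HSP70, changed by -2.07 ± 0.20. Lgals8, a galectin (-2.24 ± 0.30), lies over Heatr1 on the opposite strand, and the strand setting of the counting is not stated. The remaining genes were Nucb2 (-3.06 ± 0.39), Ppt2 (-2.32 ± 0.43), Prelid2 (-2.32 ± 0.33) and Zfp599 (-1.94 ± 0.22).

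**Figure D2:**
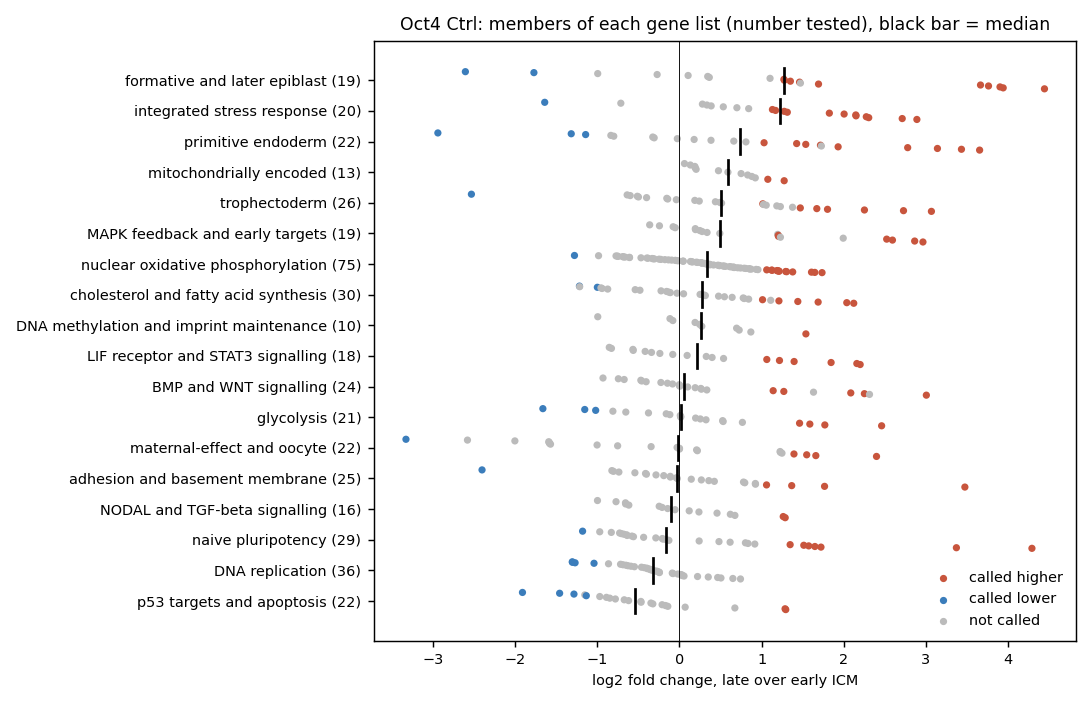
Log2 fold change from early to late ICM of every tested member of 18 gene lists, with called genes in colour, uncalled genes in grey and the list median as a black bar. The formative list has the highest median, 1.28, and the list of p53 targets the lowest, -0.54.

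Naive pluripotency genes did not move together. Of 29 tested, 7 were called higher and 1 lower, against 9.52% and 6.04% of all genes, the median log2 fold change was -0.16 against 0.03 over all genes, and the summed level was 10364 to 14769.8 CPM in early and 9989.8 to 14898 CPM in late ICMs. Besides Zscan10, the members with the largest changes at 20 CPM or more were Morc1, a factor that silences transposons in the germline (1.72 ± 0.36), and Zfp57, which protects imprints (1.65 ± 0.34). Morc1 was at 155 CPM in the early ICM labelled 9 against a median of 7.52 CPM in the other 7, and its log2 fold change was 2.63 with an adjusted p of 2.57e-09 without that embryo. Named after their values were seen, Fgf4, the ligand of the epiblast, was at 68.9 to 149 CPM in the early ICMs (median 102) and 178 to 474 CPM in the late ICMs (median 328), with a log2 fold change of 1.57 ± 0.32 (SE, adjusted p 5.51e-05), and Klf2, a naive factor, went from a median of 185 to 447 CPM (1.35 ± 0.24). Fbxo15, an embryonic stem cell gene that Oct4 and Sox2 control, fell from a median of 778 to 375 CPM (-1.18 ± 0.20). Values for other naive factors, below the fold threshold, were -0.64 for Esrrb, -0.56 for Tfcp2l1, -0.20 for Klf4, -0.64 for Klf5 and -0.21 for Zfp42.

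The formative and later epiblast list had the highest share of called genes after the integrated stress response. Of 31 listed genes 19 were tested, 10 were called higher and 2 lower, against 9.52% and 6.04% of all genes, and the summed level was 503 to 788 CPM in early ICMs and 907 to 1882 CPM in late ICMs, without overlap. Slc7a3, Foxd3 and Tcf7l1, described above, led the list. Further members, chosen after their values were seen, were Utf1, a chromatin factor of pluripotent cells (92.2 to 189 CPM in the early ICMs with a median of 138 and 277 to 539 CPM in the late ICMs with a median of 328, log2 fold change 1.28 ± 0.20 SE, adjusted p 1.28e-07), and Dnmt3b, the de novo DNA methyltransferase (median 78.2 to 176 CPM, 1.46 ± 0.29). In the opposite direction, Otx2, a formative regulator, fell from a median of 22.7 to 9.26 CPM (-1.77 ± 0.56), and Lin28b fell from 7.43 to 0.709 CPM (-2.61 ± 0.63). Pou3f1 was near 0, with medians of 0.535 to 0 CPM.

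Late ICMs were uneven in primitive endoderm genes. Of 22 tested members, 9 were called higher and 3 lower in late ICMs, against 9.52% and 6.04% of all genes, with a median of 0.74. Without the late ICM labelled 1-9 these counts were 4 higher and 4 lower, and the median 0.23. Sox17 (ENSMUSG00000025902, mm10 chromosome 1, 4490931 to 4497354), a defining factor of this lineage, was at 0 to 18.3 CPM in early ICMs, and the late ICMs held 1.42, 1.71, 2.82, 3.58, 17.6, 94.5, 114 and 394 CPM. The 3 highest of these were the embryos 1-3, 2-9 and 1-9, and Gata4, the other defining factor, was at 21.5, 38.4 and 70.0 CPM in the same 3 embryos and at 0 in the other 5. Sox17 rose by 3.43 ± 0.76 (SE, adjusted p 0.000181), or 2.21 with an adjusted p of 0.0186 without the embryo 1-9. Gata4 rose by 3.14 ± 0.85 (SE, adjusted p 0.00237), a call lost without that embryo, at 2.25 with an adjusted p of 0.0506. Lama1, a laminin of the basement membrane that this layer makes, was at 2.40 to 36.4 CPM in the early ICMs (median 13) and 19.7 to 343 CPM in the late ICMs (median 67), with a log2 fold change of 2.78 ± 0.61 (SE, adjusted p 0.000156), or 2.27 with an adjusted p of 0.00253 without the embryo 1-9.

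The list members called lower were Cited1, Gata6 and Pdgfra. Cited1, a CBP/p300 partner, went from a median of 63.6 to 2.31 CPM (-2.94 ± 0.44 SE, adjusted p 5.11e-08), or changed by -3.73 without the late ICM labelled 1-2. Gata6, which acts upstream in primitive endoderm, was added after its values were seen. It was at 233 to 627 CPM in the early ICMs (median 435) and 92.8 to 345 CPM in the late ICMs (median 143) and fell with a log2 fold change of -1.32 ± 0.25 (SE, adjusted p 1.81e-05). Its value without the embryo 1-9 was -1.30 with an adjusted p of 5.65e-05. For Pdgfra, the receptor that marks the lineage, the medians went from 36.9 to 12.6 CPM, just inside the threshold (-1.14 ± 0.47 SE, adjusted p 0.05). The call was lost with late ICMs of set 1 alone, at -0.76 with an adjusted p of 0.275.

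Trophectoderm markers were read next, and whether their transcripts came from cells left after immunosurgery was not tested. Cdx2, a defining factor, was at 4.28 to 34.3 CPM in the early ICMs (median 10.9) and 6.19 to 13.7 CPM in the late ICMs (median 10.3), and its log2 difference was -0.51 ± 0.42 (SE, adjusted p 0.37). Gata3, the other defining factor, was at 14.9 to 208 CPM in the early ICMs (median 79) and 14.1 to 105 CPM in the late ICMs (median 63.7), with a log2 fold change of -0.40 ± 0.35 (SE, adjusted p 0.408), with the top value in the early ICM labelled 9 (208 CPM against at most 104 in the other early ICMs). That embryo also held the top early value of Cdx2 (34.3 CPM against at most 22.8). With single embryos left out, the log2 fold change ran from -0.67 to -0.19 for Cdx2 and from -0.60 to -0.06 for Gata3. Of 26 list members, 7 were called higher and 1 lower, against 9.52% and 6.04% of all genes, with a median of 0.50. Those named by rule were Gata2 (2.73 ± 0.68, or 4.31 with an adjusted p of 1.19e-05 without the early ICM labelled 9), Ptges, a prostaglandin E synthase (12.8 to 116 CPM in the early ICMs with a median of 31.8 and 120.3 to 337 CPM in the late ICMs with a median of 251, log2 fold change 2.25 ± 0.30 SE, adjusted p 1.66e-09), and Hand1, which fell (28.9 to 147 CPM in the early ICMs with a median of 77.5 and 0 to 35.3 CPM in the late ICMs with a median of 8.32, log2 fold change -2.53 ± 0.58 SE, adjusted p 0.000251).

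The summed trophectoderm level moved with the early ICM labelled 9 and with the label set of the late ICMs. It was 1154 to 2156 CPM in 7 early ICMs and 3779 CPM in the early ICM labelled 9. In late ICMs it was 1429 to 2524 CPM in set 1 and 2654 to 4174 CPM in set 2. Without the early ICM labelled 9, 11 members were called higher and the list median was 1.11. With late ICMs of set 1 alone 2 were called higher (median 0.09), and with set 2 alone 7 (median 0.95). Whether any remaining trophectoderm had a part in the other results was not tested.

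**Figure D3:**
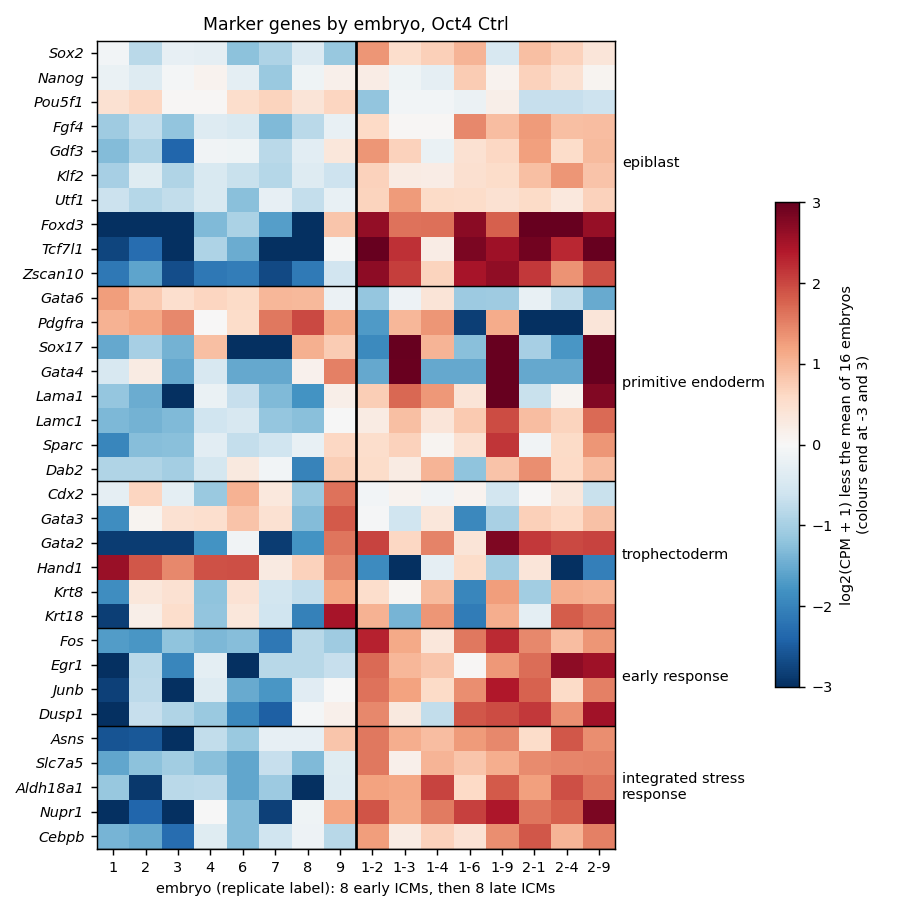
Columns are the 16 embryos by replicate label, early ICMs left of the vertical line, and colours show log2(CPM + 1) less the mean of the row, ending at -3 and 3. Rows are selected members of the lists. Sox17 and Gata4 are high in the late ICMs 1-3, 1-9 and 2-9, while Foxd3, Tcf7l1, Zscan10 and the early-response and stress-response genes shown are higher in the late ICMs as a group. Members of the same lists that were not called or fell, such as Ier2, Atf4 and Phgdh, are not shown.

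Fos, Egr1 and Junb were among 6 genes of MAPK signalling that rose. Such immediate early genes answer within minutes to signals that include ERK, and feedback inhibitors such as the DUSP phosphatases and Sprouty proteins follow. Of 19 genes tested in the list of MAPK feedback and early targets, 6 were called higher and 0 lower, against 9.52% and 6.04% of all genes, with a median of 0.49. Fos, a subunit of AP-1, was at 8.89 to 23.6 CPM in the early ICMs (median 16.6) and 54.6 to 214 CPM in the late ICMs (median 114) and rose by 2.97 ± 0.35 (SE, adjusted p 4.59e-11) with no overlap. Egr1, a zinc finger factor, was at 7.46 to 63.2 CPM in the early ICMs (median 43.2) and 79 to 499 CPM in the late ICMs (median 219) and rose by 2.86 ± 0.36 (SE, adjusted p 2.26e-10), also without overlap. Dusp1, a phosphatase of MAP kinases, was at 3.20 to 65.5 CPM in the early ICMs (median 29) and 35.3 to 347 CPM in the late ICMs (median 190.1), with a log2 fold change of 2.59 ± 0.42 (SE, adjusted p 3.83e-07), and the groups overlapped. Junb, another AP-1 subunit, rose by 2.52 ± 0.35, Etv5, an ETS factor, by 1.21 ± 0.23, and Spry1, a Sprouty protein, by 1.20 ± 0.43. The other 13 members were not called. Among these were the immediate early genes Ier2 (0.49 ± 0.20) and Ier3 (-0.05 ± 0.86), the phosphatases Dusp4 (0.25 ± 0.75), Dusp5 (0.19 ± 0.51) and Dusp6 (0.28 ± 0.42), and the Sprouty genes Spry2 (0.20 ± 0.18) and Spry4 (1.20 ± 0.52).

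Receptor and feedback genes were among those of LIF signalling that rose. LIF acts through LIFR and gp130 (Il6st) on JAK kinases and STAT3, which induces SOCS inhibitors. Of 18 genes, 6 were called higher and 0 lower, against 9.52% and 6.04% of all genes, with a median of 0.21. Lifr was at 2.41 to 50.3 CPM in the early ICMs (median 19.6) and 38.7 to 146 CPM in the late ICMs (median 78.3), with a log2 fold change of 1.85 ± 0.47 (SE, adjusted p 0.00121). Socs3, the feedback inhibitor, was at 2.41 to 44.4 CPM in the early ICMs (median 10.2) and 27.3 to 196 CPM in the late ICMs (median 70.8) and rose by 2.20 ± 0.48 (SE, adjusted p 0.000139), a call lost with late ICMs of set 2 alone, at 1.05 with an adjusted p of 0.274. Bcl3, an NF-kappaB partner induced by STAT3, rose from a median of 15.1 to 69.3 CPM with no overlap (2.16 ± 0.33). Il6st rose by 1.06 ± 0.33, and Stat3 differed by -0.42 ± 0.16, below the fold threshold. The list's summed level was 1255 to 1452 CPM in early and 1068 to 1858 CPM in late ICMs.

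A ligand and a target of the BMP pathway were among the genes that rose. Of 24 tested genes of BMP and WNT signalling, 5 were called higher and 0 lower, against 9.52% and 6.04% of all genes, with a median of 0.05 and 19 genes not called. Bmp4, a ligand, was at 0 to 17.7 CPM in the early ICMs (median 3.96) and 7.05 to 85.4 CPM in the late ICMs (median 19.6), with a log2 fold change of 2.25 ± 0.48 (SE, adjusted p 8.88e-05). Id3, a target of BMP signalling, was at 82 to 202 CPM in the early ICMs (median 143) and 181 to 479.8 CPM in the late ICMs (median 334), with a log2 fold change of 1.27 ± 0.28 (SE, adjusted p 0.000183). Named after their values were seen, Wnt6, a ligand, rose by 2.09 ± 0.49, Smad5, a transducer of BMP signals, by 1.14 ± 0.33, and Dkk1, a WNT inhibitor, by 3.01 ± 0.91. Dkk1 was at 0 to 3.12 CPM in the early ICMs (median 1.11) and 0 to 58.7 CPM in the late ICMs (median 3.02), highest in the embryos 1-3 and 1-9, while 4 of the 8 late ICMs lay within the early range. In the NODAL and TGF-beta list, 2 of 16 were called higher and 0 lower, against 9.52% and 6.04% of all genes, with a median of -0.10 and 14 genes not called. Gdf3, a ligand of that family, was at 12 to 85.2 CPM in the early ICMs (median 45.8) and 57.8 to 169 CPM in the late ICMs (median 106) and rose by 1.29 ± 0.27 (SE, adjusted p 5.96e-05), and the receptor gene Acvr1b rose by 1.26 ± 0.36.

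The integrated stress response had the largest share of genes called higher among the lists. In this response, kinases that sense a lack of amino acids or other stress raise the translation of the transcription factor ATF4, which induces amino acid synthesis enzymes, transporters and charging enzymes. Of 20 tested members 12 were called higher and 1 lower, against 9.52% and 6.04% of all genes. The median log2 fold change was 1.22, and the summed level was 1245 to 1911 CPM in early and 2336 to 3375 CPM in late ICMs, without overlap. Since 12 of these genes rose, the listed genes' promoters were searched for TGATGNAA, the core of the element that ATF4 and C/EBP factors bind as dimers, on both strands in the 250 bases before the annotated start. The letters were found in 7 of the 22 listed genes with a promoter entry and in 3.45% of all 32,851 promoters of the same length. The motif was chosen after the values were seen. A match is a description of the sequence, and no match says only that these letters are not in the window. The stretches shown here, from RefSeq on GRCm38.p6, are those of Asns (chr6:7693210-7693459, minus strand), Chac1 (chr2:119350992-119351241, plus strand), Nupr1 (chr7:126625471-126625720, minus strand) and, from outside the list, the leading gene Pycr1 (chr11:120643749-120643998, minus strand). Of the 11 list genes called higher that have an entry, 5 hold a match (Asns, Chac1, Nupr1, Atf3 and Pck2). The first 3 of these and Pycr1 are shown as examples, chosen after the matches were seen, with the match in capitals. It begins 23, 193, 110 and 103 bases before the start. In Chac1 and Nupr1 it lies on the opposite strand.
Asns: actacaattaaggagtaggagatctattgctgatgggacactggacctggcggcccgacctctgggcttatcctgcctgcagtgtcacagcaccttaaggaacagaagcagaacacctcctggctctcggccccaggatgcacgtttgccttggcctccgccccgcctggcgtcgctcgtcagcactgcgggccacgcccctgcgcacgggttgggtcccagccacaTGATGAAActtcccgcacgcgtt
Chac1: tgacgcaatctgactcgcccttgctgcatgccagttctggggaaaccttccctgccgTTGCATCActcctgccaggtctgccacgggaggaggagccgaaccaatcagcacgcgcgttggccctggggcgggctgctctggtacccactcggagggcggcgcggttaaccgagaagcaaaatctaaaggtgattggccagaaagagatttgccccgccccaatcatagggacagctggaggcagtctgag
Nupr1: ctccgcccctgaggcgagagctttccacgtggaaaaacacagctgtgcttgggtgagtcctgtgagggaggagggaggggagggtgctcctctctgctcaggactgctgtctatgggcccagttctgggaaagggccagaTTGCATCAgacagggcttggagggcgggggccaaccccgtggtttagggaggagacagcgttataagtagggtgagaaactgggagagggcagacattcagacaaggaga
Pycr1: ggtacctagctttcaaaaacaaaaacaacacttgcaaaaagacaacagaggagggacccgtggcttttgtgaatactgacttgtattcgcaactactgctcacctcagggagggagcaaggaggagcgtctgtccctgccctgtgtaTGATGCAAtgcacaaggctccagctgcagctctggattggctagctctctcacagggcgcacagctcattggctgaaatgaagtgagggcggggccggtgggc

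Enzymes and transporters were among the 12 members that rose. Of the members named here, Aldh18a1, Slc7a5 and Nupr1 met the naming rule and Ddit4 met it for another comparison, and the others were chosen after their values were seen. Asns, which makes asparagine, was at 14.4 to 309 CPM in the early ICMs (median 90.7) and 254 to 630.1 CPM in the late ICMs (median 437) and rose by 2.01 ± 0.39 (SE, adjusted p 2.49e-05). Aldh18a1, the first enzyme of proline synthesis, rose from a median of 6.53 to 43.6 CPM with no overlap (2.89 ± 0.39 SE, adjusted p 3.55e-09). Slc7a5, the transporter of large neutral amino acids, was at 17.1 to 40.5 CPM in the early ICMs (median 21.5) and 58.7 to 160.2 CPM in the late ICMs (median 128), also without overlap, and rose by 2.31 ± 0.29 (SE, adjusted p 3.57e-10). The member that fell was Phgdh, the first enzyme of serine synthesis, from a median of 107 to 37.2 CPM (-1.64 ± 0.29 SE, adjusted p 2.44e-06), while Psph, a later enzyme of that path, rose by 1.17 ± 0.24. Regulators were mixed. Nupr1, a stress-induced coregulator, was at 0 to 67.5 CPM in the early ICMs (median 8.10) and 65.9 to 212 CPM in the late ICMs (median 107) and rose by 2.71 ± 0.46 (SE, adjusted p 9.66e-07), with 67.5 CPM in the early ICM labelled 9 against at most 28.9 in the other 7. Without that embryo its log2 fold change was 3.42 with an adjusted p of 1.55e-08. Chac1, which degrades glutathione, rose by 1.83 ± 0.52. Atf4, controlled mainly by translation, differed by 0.28 ± 0.14, and Ddit3, its partner gene, by 0.70 ± 0.38. Ddit4, an inhibitor of mTORC1, was not called (-0.71 ± 0.40), though it was under 1 alternative.

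**Figure D4:**
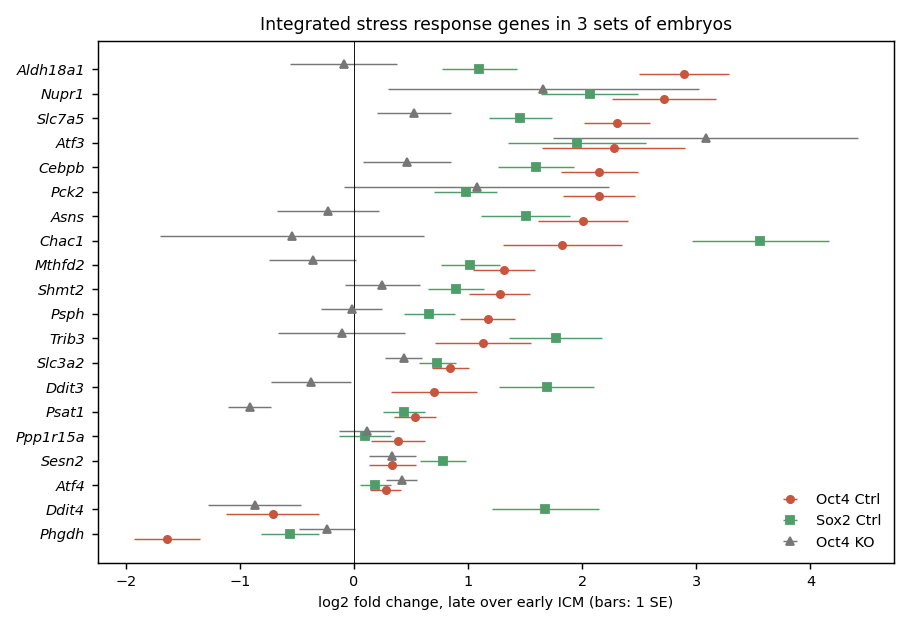
Log2 fold changes from early to late ICM (points) with 1 SE (bars) for the 20 tested genes of the integrated stress response in Oct4 Ctrl, Sox2 Ctrl and Oct4 KO embryos, which share no embryos. The medians are 1.22, 1.06 and 0.05.

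The rise of part of this list differed in the embryos without Oct4. In Oct4 KO, 0 of the 20 were called from early to late ICM by edgeR (5 at an unadjusted p under 0.05, 0 called by DESeq2), where 16% of all genes were called, and in Sox2 Ctrl 11 higher and 0 lower, where 2.9% of all genes were called. The difference between the Oct4 Ctrl and Oct4 KO transitions was called for 8 of the 20 (3.11% of all genes), 7 with a higher and 1 with a lower change in Ctrl. Aldh18a1 changed by -0.09 ± 0.47 (SE, adjusted p 0.911) in KO, a difference of 2.98 ± 0.62 (SE, adjusted p 0.00125). For Asns the KO change was -0.23 ± 0.45 and the difference 2.23 ± 0.59 (SE, adjusted p 0.0135). Slc7a5 differed by 1.78 ± 0.44 (SE, adjusted p 0.00713). For Nupr1 (1.66 ± 1.37 in KO) and Chac1 (-0.54 ± 1.16) the differences were not called.

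Most genes of oxidative phosphorylation were not called. In the nuclear list, 13 of 75 tested genes were called higher and 1 lower, against 9.52% and 6.04% of all genes, and 61 were not called. Without overlap of the stages, 12 were higher and 5 lower in late ICMs, against 3.05% and 3.3% of all genes. The median was 0.34. Cox8a, a subunit of cytochrome oxidase, was at 477 to 758 CPM in the early ICMs (median 551) and 1028 to 2684 CPM in the late ICMs (median 1961) and rose by 1.74 ± 0.14 (SE, adjusted p 5e-19). Atp5g2, a subunit of the ATP synthase ring, rose by 1.65 ± 0.16, and Ndufb2, of complex I, by 1.61 ± 0.15, both without overlap. Ndufb2 lies over Braf on the opposite strand. Atp5k fell (-1.28 ± 0.12). With the late ICMs of set 1 alone the list held 17 higher and 1 lower genes (median 0.49), and with set 2 alone 4 higher and 6 lower (median -0.01), so the direction of the median depended on the set. The mitochondrially encoded genes had a median of 0.59, 2 of 13 called higher and 0 lower, against 9.52% and 6.04% of all genes. mt-Atp6 was at 239 to 361 CPM in the early ICMs (median 284) and 284 to 1159 CPM in the late ICMs (median 676), with a log2 fold change of 1.28 ± 0.20 (SE, adjusted p 2.06e-07). Its neighbour mt-Co3, which overlaps it, was at 724 to 968 CPM in the early ICMs (median 822) and 607 to 2677 CPM in the late ICMs (median 1548), with a log2 fold change of 1.08 ± 0.21 (SE, adjusted p 1.39e-05). With late ICMs of set 1 alone both fell below the fold threshold, at 0.93 with an adjusted p of 0.000415 and 0.64 with an adjusted p of 0.0197, and mt-Co3 did so by limma on the rlog values (0.93) and without any 1 of the late ICMs 2-1, 2-4 and 2-9 (lowest 0.93). The lowest sum over the 13 genes was in the late ICM labelled 1-9 (27634 CPM, late median 51111).

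Of 21 tested genes of glycolysis, 4 were called higher and 3 lower, against 9.52% and 6.04% of all genes (median 0.02). Gapdh, which oxidises glyceraldehyde phosphate, was at 231 to 516 CPM in the early ICMs (median 346) and 612 to 1511 CPM in the late ICMs (median 1086), with a log2 fold change of 1.59 ± 0.32 (SE, adjusted p 3.95e-05). Its many pseudogenes make its count less certain. Pfkp, the platelet form of phosphofructokinase, went from a median of 6.43 to 39 CPM (2.46 ± 0.39 SE, adjusted p 2.09e-07), and it lies over Pitrm1 on the opposite strand. Pgam1, a later enzyme, fell from a median of 317 to 142 CPM (-1.15 ± 0.18 SE, adjusted p 1.05e-07). In the cholesterol and fatty acid list, 6 of 30 were called higher and 2 lower, against 9.52% and 6.04% of all genes (median 0.27). The summed level was 2028 CPM at the median early and 1479.9 CPM at the median late ICM, opposite in direction to the median fold change. That median was 0.25 with late ICMs of set 1 alone and -0.08 with set 2 alone, so its direction depended on the set. With set 2 alone 2 genes were called higher and 2 lower. Without the late ICM labelled 1-9 the median was 0.13. Sqle, squalene epoxidase, rose by 2.12 ± 0.46 (SE, adjusted p 0.000125), Srebf2, the factor that controls the pathway, by 2.04 ± 0.40, and Mvk, mevalonate kinase, by 1.44 ± 0.30. With late ICMs of set 2 alone the call of Srebf2 was lost, at 1.28 with an adjusted p of 0.0761. Scd2, a desaturase, fell from a median of 369.9 to 150.1 CPM (-1.22 ± 0.26).

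Some genes named for oocytes were higher in late ICMs. Ctrl embryos lack maternal Oct4, and the maternal-effect list was read for other oocyte transcripts. Of 22 tested, 4 were called higher and 1 lower, against 9.52% and 6.04% of all genes (median -0.01). Zbed3 (2.13 to 15 CPM in the early ICMs with a median of 4.10 and 15.4 to 56.7 CPM in the late ICMs with a median of 26.5, log2 fold change 2.40 ± 0.39 SE, adjusted p 3.56e-07), Tle6 (median 5.86 to 20.03 CPM, 1.66 ± 0.33) and Ooep (37.5 to 167 CPM in the early ICMs with a median of 60.2 and 30.5 to 471 CPM in the late ICMs with a median of 167, log2 fold change 1.55 ± 0.32 SE, adjusted p 6.03e-05) belong with Khdc3 to the subcortical maternal complex or its partners. Khdc3, named after its values were seen, was at 734 to 1401 CPM in the early ICMs (median 1020.1) and 1772 to 3419.9 CPM in the late ICMs (median 2595), with a log2 fold change of 1.39 ± 0.16 (SE, adjusted p 1.04e-11). Ooep was at 167 CPM in the early ICM labelled 9 against at most 85.4 in the others. In the list of DNA methylation and imprint maintenance, which leaves out Dnmt3b and Zfp57 because other lists hold them, 1 of 10 genes was called higher and 0 lower, against 9.52% and 6.04% of all genes. The member called was Dnmt3l, the cofactor of de novo methylation (8.53 to 65.5 CPM in the early ICMs with a median of 29.5 and 27.3 to 207 CPM in the late ICMs with a median of 89.6, log2 fold change 1.54 ± 0.32 SE, adjusted p 7.83e-05).

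The lists of DNA replication and of p53 targets had medians below 0. Of 36 replication genes, 0 were called higher and 4 lower, against 9.52% and 6.04% of all genes, with a median of -0.32. Rrm1, the large subunit of ribonucleotide reductase, was at 209.6 to 311 CPM in the early ICMs (median 236) and 64.5 to 134 CPM in the late ICMs (median 101), with a log2 fold change of -1.30 ± 0.14 (SE, adjusted p 2.68e-12), with no overlap. Cdc6, which loads the replicative helicase, changed by -1.31 ± 0.24, and Rfc1, the clamp loader subunit, by -1.04 ± 0.14. Both fell under the fold threshold by limma on the deposited rlog values (-0.98 and -0.91). Rfc1 did so too by DESeq2 (-0.997), with GC content in the fit (-0.89) and without the late ICM labelled 2-1 (-0.99). Of 22 genes of p53 and apoptosis, 2 were called higher and 4 lower, against 9.52% and 6.04% of all genes, with a median of -0.54. Perp, a desmosomal p53 target, was at 71.7 to 169 CPM in the early ICMs (median 124) and 5.38 to 52.9 CPM in the late ICMs (median 34.2), with a log2 fold change of -1.91 ± 0.34 (SE, adjusted p 4.07e-06). Pmaip1 (NOXA), which promotes apoptosis, fell by 1.46 on the log2 scale (SE 0.42), and Bcl2l1 (BCL-XL), which opposes it, rose by 1.29 ± 0.29 (SE, adjusted p 0.000271). With late ICMs of set 1 alone both calls were lost, at -1.09 with an adjusted p of 0.0677 and 0.90 with an adjusted p of 0.0299. Of 25 adhesion and basement membrane genes, 4 were called higher and 1 lower, against 9.52% and 6.04% of all genes (median -0.03). Jup, plakoglobin, rose by 1.37 ± 0.22 and Cldn3, a tight junction claudin, by 1.77 ± 0.45, beside the fall of Itga6. None of the 5 tested genes of the X inactivation centre was called by edgeR (2 at an unadjusted p under 0.05, 0 called by DESeq2), against 9.52% higher and 6.04% lower of all genes. In a list this short such a count says little. Xist ranged from 1.07 to 869.6 CPM in early and from 0 to 566 CPM in late ICMs, and Rlim, which activates it, was at 183 to 275 CPM in the early ICMs (median 220.5) and 80.8 to 170.1 CPM in the late ICMs (median 129), with a log2 fold change of -0.80 ± 0.14 (SE, adjusted p 2.29e-06). None of the 4 Y-linked genes tested was called by edgeR (0 at an unadjusted p under 0.05, 0 called by DESeq2), against the same shares of all genes. Ddx3y was at 0.01 ± 0.99 and Eif2s3y at 0.23 ± 0.89. The summed Y-linked level spanned 0 to 207 CPM in early and 1.41 to 197 CPM in late ICMs.

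The transition was then set beside the same step in separate embryos. Sox2 Ctrl embryos came from Sox2 flox/flox females with Zp3-Cre and Sox2 +/EGFP males, so they lacked maternal Sox2, and their maternal Oct4 was not deleted. In Sox2 Ctrl, 407 genes were called (2.9%), in Oct4 KO 2242 (16%), and in MWT embryos of the Oct4 line 1839 of 13,923 (13.2%). The MWT ICMs, 5 early and 8 late by their titles, had mothers with intact Oct4, and their source names give an earlier stage. Their records give 1 µM of the inhibitor from E2.5 for the late ICMs and no inhibitor for the early ones. No embryonic day is given for either, so treatment and stage may both differ from those of the Oct4 Ctrl ICMs. None of these groups shares an embryo with the Oct4 Ctrl ICMs. Of the 1338 genes called higher in Oct4 Ctrl, 163 were called higher in Sox2 Ctrl, which is 12.2% of the former and 59.9% of the latter list. Of the 849 called lower, 63 were also lower there (7.42% and 46.7%). The sign was the same for 80.6% of the higher and 74.6% of the lower genes, with a median log2 fold change in Sox2 Ctrl of 0.46 and -0.35. In Oct4 KO, 534 higher genes (39.9% of the Oct4 Ctrl list and 38.9% of the KO list) and 314 lower genes (37% and 36.1%) were shared. Of the genes called higher and lower in Oct4 Ctrl, 87.4% and 87.5% had the same sign in KO, with median log2 fold changes there of 1.06 and -0.88. In MWT embryos the sign was the same for 94.6% of the higher and 96.6% of the lower genes, of 1326 and 844 also tested there. These shares are of called genes only. Over 6565 genes of at least 20 CPM, called or not, Spearman's rho with the Oct4 Ctrl change was 0.38 in Sox2 Ctrl, 0.714 in Oct4 KO and 0.845 in MWT.

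The change itself differed between Oct4 Ctrl and Sox2 Ctrl for 918 genes (6.53%), 526 with the higher and 392 with the lower change in Oct4 Ctrl. When the counts were scaled by library totals the split was 383 to 505 of 888, so the larger side depended on the scaling. The largest positive differences among genes of at least 20 CPM in a group were those of Car2 (4.35 ± 0.99 SE, adjusted p 0.000978), Mme (3.85 ± 0.88 SE, adjusted p 0.000921), Akr1c21, an aldo-keto reductase (3.64 ± 0.77 SE, adjusted p 0.000331), and Grin1, an NMDA receptor subunit (3.30 ± 0.68 SE, adjusted p 0.000204). Car2 changed by 6.38 ± 0.73 in Oct4 Ctrl and 2.04 ± 0.54 in Sox2 Ctrl. Grin1 changed by 1.56 ± 0.43 in Oct4 Ctrl and -1.75 ± 0.53 in Sox2 Ctrl. With late ICMs of set 2 alone the change of Grin1 in Oct4 Ctrl was 0.25 with an adjusted p of 0.821, and with set 1 alone 1.97 with an adjusted p of 0.000327. On the negative side stood Mboat1, a lysophospholipid acyltransferase (-2.42 ± 0.57 SE, adjusted p 0.00136), Nfkbia, the inhibitor of NF-kappaB (-2.42 ± 0.56 SE, adjusted p 0.000978), Ncl (-2.42 ± 0.18 SE, adjusted p 2.35e-20) and Ddit4 (-2.39 ± 0.62 SE, adjusted p 0.0039). Ddit4 rose in Sox2 Ctrl (1.68 ± 0.47) and differed by -0.71 ± 0.40 in Oct4 Ctrl.

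Ncl fell in all 3 sets of Oct4-line embryos. Its mean went from 693 to 119 CPM in Oct4 Ctrl, from 629 to 155 in Oct4 KO and from 576 to 125 in MWT, and it was 182 and 167 CPM in Sox2 Ctrl. Its change was -2.02 ± 0.13 in KO, -2.20 ± 0.14 in MWT and -0.12 ± 0.12 in Sox2 Ctrl. Oct4 Ctrl morulae held 259.6 CPM. Of the 12 leading genes that fell, 10 were called lower in Oct4 KO, 10 in MWT and 4 in Sox2 Ctrl. Of the 12 that rose, 5 were called higher in Oct4 KO, 9 in MWT and 10 in Sox2 Ctrl. Over all genes, 16% were called in either direction in Oct4 KO, 13.2% in MWT and 2.9% in Sox2 Ctrl. The line and the processing of its libraries cannot be told apart.

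Against Oct4 KO, the change differed for 437 genes, 146 with the higher and 291 with the lower change in Ctrl. Those with a higher change in Ctrl were led by Ankrd45, an ankyrin repeat gene (0 to 7.27 CPM in the early ICMs with a median of 1.07 and 16.1 to 35.9 CPM in the late ICMs with a median of 25.8), which rose by 3.58 ± 0.48 (SE, adjusted p 2.83e-09) in Ctrl (4.19 without the early ICM labelled 9) and changed by -1.37 ± 0.96 in KO, a difference of 4.95 ± 1.14 (SE, adjusted p 0.00395). Fbln5 (4.28 ± 1.08 SE, adjusted p 0.00909), Foxd3 (3.60 ± 1.07 SE, adjusted p 0.0326) and Rbmxl2, an RNA-binding protein of germ cells (3.43 ± 0.78 SE, adjusted p 0.00327), followed. After each library was thinned to the depth of the shallowest, the differences of Fbln5 (adjusted p 0.336) and Foxd3 (adjusted p 0.132) from KO lost their call. Foxd3 was at a mean of 5.12 CPM in early and 6.62 CPM in late KO ICMs. In the other direction, Slc15a2, a peptide transporter, rose by 6.03 ± 0.90 (SE, adjusted p 5.21e-08) in KO and was 0 to 58.2 CPM in the early ICMs (median 2.27) and 0 to 48.1 CPM in the late ICMs (median 14.9) in Ctrl (0.55 ± 0.73, or 1.71 with an adjusted p of 0.0971 without the early ICM labelled 9), a difference of -5.48 ± 1.22 (SE, adjusted p 0.00276). Mbnl3, a muscleblind splicing factor (-4.47 ± 1.39 SE, adjusted p 0.0429), Vgll3, a TEAD cofactor (-4.28 ± 1.32 SE, adjusted p 0.0418), and Pdzk1ip1, a membrane protein (-4.20 ± 1.11 SE, adjusted p 0.0131), followed. All 4 rose in KO, by 6.75 ± 0.96, 4.48 ± 0.90 and 4.15 ± 0.69 for the last 3, and Mbnl3 was also called higher in Ctrl (2.28 ± 0.71). That call of Mbnl3 in Ctrl was lost without the late ICM labelled 2-4, at 1.59 with an adjusted p of 0.0943, and with late ICMs of set 1 alone, at 1.31 with an adjusted p of 0.251. The differences of Mbnl3 and Vgll3 from KO lost their call under 4 and 2 of 10 alternatives (adjusted p up to 0.149 and 0.0696).

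The change also moved with the base composition of transcripts. Genes were split into 10 groups of about equal size. In the group with the highest GC content of the longest annotated transcript (57.7% to 78.3%), the median log2 fold change was 0.52, with 307 genes called higher and 45 lower. In the group with the lowest (17.1% to 41.0%) it was -0.06, with 82 higher and 86 lower. Spearman's rho between GC content and the log2 fold change was 0.188 across 14,045 genes, which are not independent of each other and share the libraries. In Sox2 Ctrl the medians of the same groups of genes were 0.07 and -0.16. The 12 leading genes that rose had a median GC content of 54.5% (38.0% to 66.4%) and the 12 that fell one of 48.1% (41.8% to 57.3%), against 49.5% over all genes. With a smooth GC term for each embryo in the fit, chosen after seeing the data, 1988 genes were called (1183 higher, 805 lower), of which 1754 were among the 2187. The cause of the relation was not tested.

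**Figure D5:**
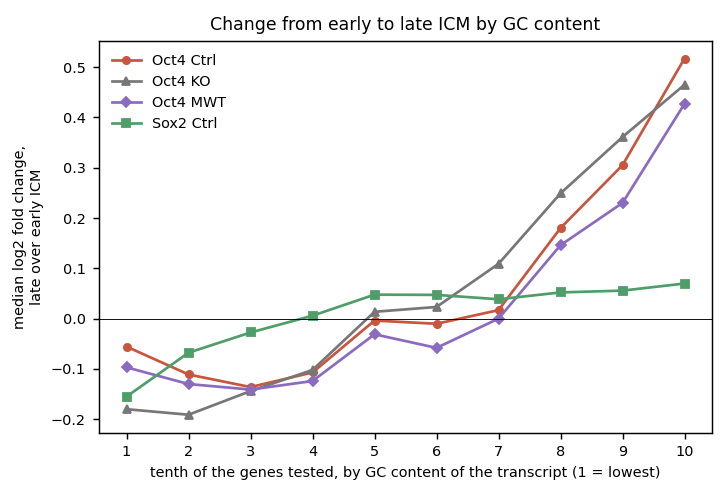
Genes were put in 10 equal groups by the GC content of their longest transcript, and each point is the median log2 fold change of a group from early to late ICM in Oct4 Ctrl, Oct4 KO, Oct4 MWT and Sox2 Ctrl embryos. In the 3 sets of the Oct4 line the median in the top group is 0.43 to 0.52, and in Sox2 Ctrl it is 0.07.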

How the data were processed

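Single embryos were sequenced by a method that reads transcripts near their 3′ ends and tags each molecule. Per the methods of the study, the authors trimmed reads with Cutadapt, aligned them to mm10 with TopHat2, assigned them to GENCODE vM23 genes with featureCounts and corrected UMI numbers with TRUmiCount. The deposited tables hold whole-number UMI counts of 29,022 genes, and log2 values made from them by the rlog transform of DESeq2 (15,747 genes), which served only as an alternative. How strand entered the counting is not given in the sources used here, so genes that overlap on opposite strands are uncertain.

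The counts of 96 Ctrl and KO embryos in 12 groups of genotype and stage were fitted together with edgeR 4.0.16 in R 4.3.3 (TMM, glmQLFit, glmQLFTest), keeping genes found in 0.5 or more of a stage's embryos. MWT embryos entered a second fit of all 123 embryos. Calls required a p under 0.05 after Benjamini-Hochberg adjustment and a log2 fold change of at least 1 in size. The standard error is the fold change divided by the root of F. The difference between 2 transitions was tested as an interaction contrast. Alternatives used DESeq2 1.42.0, limma 3.58.1, other scalings and filters, and left out single embryos. The scripts were tested on simulated data. No 2 of the 16 libraries were alike within sampling noise (56 pairs within stages, lowest chi-square per gene 3.21).

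The genes named were Pou5f1 and Sox2, the 12 highest and the 12 lowest fold changes among called genes of at least 20 CPM whose groups did not overlap (unnamed models and pseudogenes passed over), up to 3 called members of each list at 20 CPM or more (the 2 most abundant where none was called), the 4 highest and the 4 lowest called genes of each interaction, and the defining markers, 88 genes in all. Other list members in the text were chosen after their values were seen. The embryos, gene lists and tests were chosen with earlier results of these data known. Depth ranged from 526 to 938 kilo-UMIs per embryo, which limits the precision of genes with few UMIs.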

Additional observations from a re-analysis of the deposited data

Results flagged for a closer look

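In 21 of 172 groups of 8 embryos checked for the 88 named genes, 1 embryo lay farther from the rest than Dixon's limit allows. For independent groups of normally distributed values the limit would be passed in about 1 in 20. CPM values are skewed and the named genes share the same embryos, so the 21 cannot be measured against that rate. The early ICM labelled 9 accounted for 11 of them, with 61.3 CPM of Foxd3, 20.8 of Gata2, 208 of Gata3, 7.27 of Gata4, 155 of Morc1, 67.5 of Nupr1, 167 of Ooep, 10.4 of Pdzk1ip1, 58.2 of Slc15a2, 19.7 of Vgll3 and 8.31 of Zscan10, in each case the highest early value. Among these genes are trophectoderm factors and genes that rose towards the late ICM.

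The late ICM labelled 1-9 held 394 CPM of Sox17 and 98.8 CPM of Vim. The late ICM labelled 1-2 held 58.1 CPM of Adap1 and 28.3 CPM of Cited1, and the one labelled 2-4 held 47.8 CPM of Mbnl3 and 20.5 CPM of Vgll3. Single values stood apart for Mboat1 in late ICM 1-4 (16.0 CPM), Cited4 in early ICM 3 (0 CPM), Rbmxl2 in early ICM 8 (49.4 CPM) and Zbed3 in early ICM 4 (15 CPM).

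The change from early to late ICM differed from that of Sox2 Ctrl in 8 named genes by the interaction test of edgeR, with log2 differences of 4.35 for Car2, 3.85 for Mme, 3.64 for Akr1c21, 3.30 for Grin1, -2.42 for Mboat1, Nfkbia and Ncl, and -2.39 for Ddit4. It differed from that of Oct4 KO in 8, with 4.95 for Ankrd45, 4.28 for Fbln5, 3.60 for Foxd3, 3.43 for Rbmxl2, -5.48 for Slc15a2, -4.47 for Mbnl3, -4.28 for Vgll3 and -4.20 for Pdzk1ip1. The causes were not tested.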

How the results depend on the processing

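With no minimum fold change, the number of genes called was 4560 for the Oct4 Ctrl transition, 1013 for Sox2 Ctrl, 4564 for Oct4 KO and 1833 for the difference between Oct4 Ctrl and Sox2 Ctrl. With limma on the deposited rlog values, which draw fold changes of low genes towards 0, the numbers were 857, 156, 972 and 496. The other alternatives kept these counts within 1.5 times, with 2074 for the Oct4 Ctrl transition by DESeq2. Leaving out single embryos gave 1972 (without early ICM 1) to 2322 (without early ICM 9). With late ICMs of set 1 alone 2034 genes were called and with set 2 alone 1637. Of the 76 genes chosen by the naming rule and called in the Oct4 Ctrl transition, 65 were called under every alternative run, and 0 of the 76 turned their direction. Those lost under at least 1 were Bcl2l1, Cdc6, Gata4, Grin1, Mbnl3, Pmaip1, Rfc1, Socs3, Srebf2, mt-Atp6 and mt-Co3. Among the genes of the rule that were not called, Pou5f1 and Ddit4 were called under at least 1 alternative. List members named outside the rule, such as Asns, Phgdh, Fgf4 and Gata6, are not in these counts. The 8 named differences from Sox2 Ctrl were called throughout, and Fbln5, Foxd3, Mbnl3 and Vgll3 were lost under at least 1 alternative among the 8 from Oct4 KO. No paired analysis was possible because the early ICMs carry plain numbers and the late ICMs a set and a number, so that no label is shared. Genes with few UMIs set the limit of precision, such as Car2, Mme and Vim with 5 UMIs each over all early ICMs.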
